A study of Xenopus tropicalis with 26 samples.

Results

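In single Xenopus tropicalis embryos at the early gastrula stage, 19 of 26550 gene models met the criteria below for variation among siblings. The criteria held for each of 3 clutches, and only 7122 models lay within their limits on level. The clutch means of the 19 lay under 1.5 times apart, as the choice required. The 19 models were chosen from the values themselves. The mean over all 15 embryos had to lie from 10 to under 750 TPM (a unit that scales each transcript's reads by its length and gives every embryo the same total). The coefficient of variation (CV, the SD of TPM in 5 siblings divided by their mean) had to reach 25% in each of clutches A, B and C. The highest clutch mean had to stay under 1.5 times the lowest. The mean range held 8542 models, 7122 of them also met the limit on clutch means, and the 7103 that met both without being variable in every clutch serve as comparison models. Because variation chose the 19, their CVs are a description and were not tested.

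The embryos came from clutches A, B and C, 5 untreated whole embryos each, at Nieuwkoop-Faber stage 10.25 and 7 hours after fertilisation. Each embryo is named here by its clutch letter and sample number. Polyadenylated RNA of each was turned into a library of its own by Smart-seq2 and tagmentation, and the study set out to relate variation between embryos to the histone mark H3K4me1. Clutches stand for 1 set of siblings each, so parents and handling cannot be told apart. Per embryo, 17510 to 18871 gene models were above 0, median-ratio size factors ran from 0.971 to 1.05, and the 10 highest models took 7.41% to 10.4% of all TPM, with B1 (8.97%) above its siblings (at most 7.58%). Read depth is not kept in TPM, so the counting error behind a value is unknown.

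The RNA of an early gastrula is a mixture of maternal transcripts laid down in the egg and zygotic transcripts made after the embryo's genome is switched on. Each embryo of a clutch also inherits its own combination of parental alleles. When RSEM, the program named for these values, meets reads that match several gene models, it divides them among those models, so the levels of near-identical models are uncertain. The models carry identifiers without gene symbols, and 0 of the 26550 matched the reference gene table. No member can therefore be given a gene name or function, marker genes of the whole embryo could not be looked up, and the H3K4me1 peaks could not be joined to the models.

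Variation of this size in every clutch was rare. Of the 7122 models within both limits on level, 6866 reached a CV of 25% in no clutch, 207 in a single clutch, 30 in exactly 2 and 19 in all 3. Clutch A had the most such models, 169, against 83 in clutch B and 72 in clutch C. The median CV of the 19 was 38.2% in clutch A, 37.3% in B and 31.3% in C. In the comparison models it was 8.08%, 6.89% and 7.08%. A further 50 models were variable in every clutch but had clutch means too far apart, and no model of 750 TPM or more met the other criteria.

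**Figure D1:**
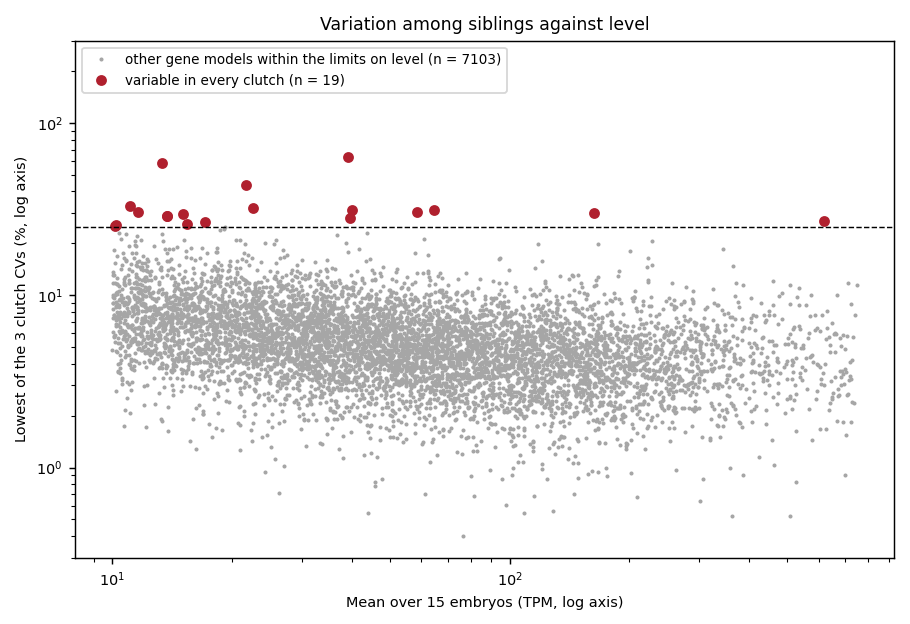
Lowest of the 3 clutch CVs (%, log axis) against the mean TPM over 15 embryos (log axis) for the 7122 gene models within the limits on level. The 19 models (red) lie above the dashed 25% line, and 10 of them have means under 20 TPM.

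The variable models tended to lower levels than the comparison models, but not all of them. Their means ran from 10.2 to 619 TPM with a median of 17.1 TPM, against a median of 52.9 TPM in the comparison models. Counting the identical models Xetrov90028252m.g and Xetrov90029324m.g once gives a median of 19.4 TPM. From 10 to under 20 TPM, 10 of 1234 models were members (0.810%), both identical models included. From 20 to under 50 TPM it was 5 of 2168 (0.231%), from 50 to under 200 TPM 3 of 2914 (0.103%), and from 200 TPM up 1 of 806 (0.124%). The part that counting error plays at low levels was not tested, since no counts were used here. At the limit itself, Xetrov90004889m.g, Xetrov90006726m.g and Xetrov90004430m.g were just inside, with lowest-clutch CVs of 25.2%, 25.7% and 26.0%. Just outside were Xetrov90009917m.g at 24.8%, Xetrov90006211m.g at 24.1% and Xetrov90029414m.g at 23.8%.

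Xetrov90005126m.g had the highest lowest-clutch CV of the set, 63.1%, and its values fell into separate low and high ranges in every clutch. In clutch A it stood at 5.36, 4.72 and 5.33 TPM in embryos A1, A2 and A3 and at 59.8 and 103 TPM in A4 and A5. In clutch B it was 12.9 and 10.8 TPM in B1 and B2 and 56.6, 48.6 and 57.9 TPM in B3, B4 and B5. In clutch C it was 2.82 and 4.22 TPM in C2 and C3 and 55.1, 86.1 and 72.9 TPM in C1, C4 and C5. The 7 low embryos reached at most 12.9 TPM and the 8 high ones at least 48.6 TPM, with no value in between. The clutch means were 35.7 ± 44.6 TPM in A, 37.3 ± 23.6 in B and 44.2 ± 38.8 in C (SD, n = 5 each).

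Xetrov90005559m.g divided the embryos almost the same way, over a smaller range. Its low side, 37.0 to 52.8 TPM, held A2, A3, A5, B1, B2, C2 and C3, and its high side, 72.8 to 91.6 TPM, held the other 8 embryos. The models differed in clutch A, where A1 was low for Xetrov90005126m.g but had 86.6 TPM of Xetrov90005559m.g, and A5 was the highest for the former and on the low side for the latter at 52.8 TPM. In clutches B and C the low and high embryos were the same for both. Their correlation over 15 embryos, on deviations of log2(TPM + 1) from the clutch mean, was 0.695 (Spearman 0.561). Within clutches it was 0.306 in A, 0.988 in B and 0.994 in C, each over 5 embryos.

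Xetrov90027359m.g showed 3 ranges of values. It was lowest in A1, A4 and B4, at 5.14, 4.83 and 3.16 TPM. A second range, from 12.4 to 14.4 TPM, held B1, B3, B5, C1, C2 and C4. The highest range, from 18.7 to 23.4 TPM, held A2, A3, A5, B2, C3 and C5. Clutch A had embryos in the lowest and highest ranges alone, clutch B in all 3, and clutch C in the upper ranges alone. The lower step, from 5.14 to 12.4 TPM, was 1.12 on the log2(TPM + 1) scale, and the upper step, from 14.4 to 18.7 TPM, was smaller. These ranges were read off the values after they had been seen.

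Wide gaps were a feature of few models, and the largest gap of Xetrov90005559m.g, 0.456, and the upper step of Xetrov90027359m.g are not among them. A gap of at least 1 on the log2(TPM + 1) scale between neighbouring values of the 15 embryos occurred in 6 of the 19 models (31.6%) and in 9 of the 7103 comparison models (0.127%). Of the 6, 2 are identical to each other in every embryo, and counted once they give 5 of 18 (27.8%). In 3 of the 6, Xetrov90005126m.g, Xetrov90014125m.g and Xetrov90027359m.g, more than 1 embryo lay on each side. In all 9 comparison models a single embryo, A5, stood alone on one side of the gap. A wide gap makes a high CV, so the larger share among the 19 follows in part from how they were chosen, and the gap was examined after the values had been seen.

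**Figure D2:**
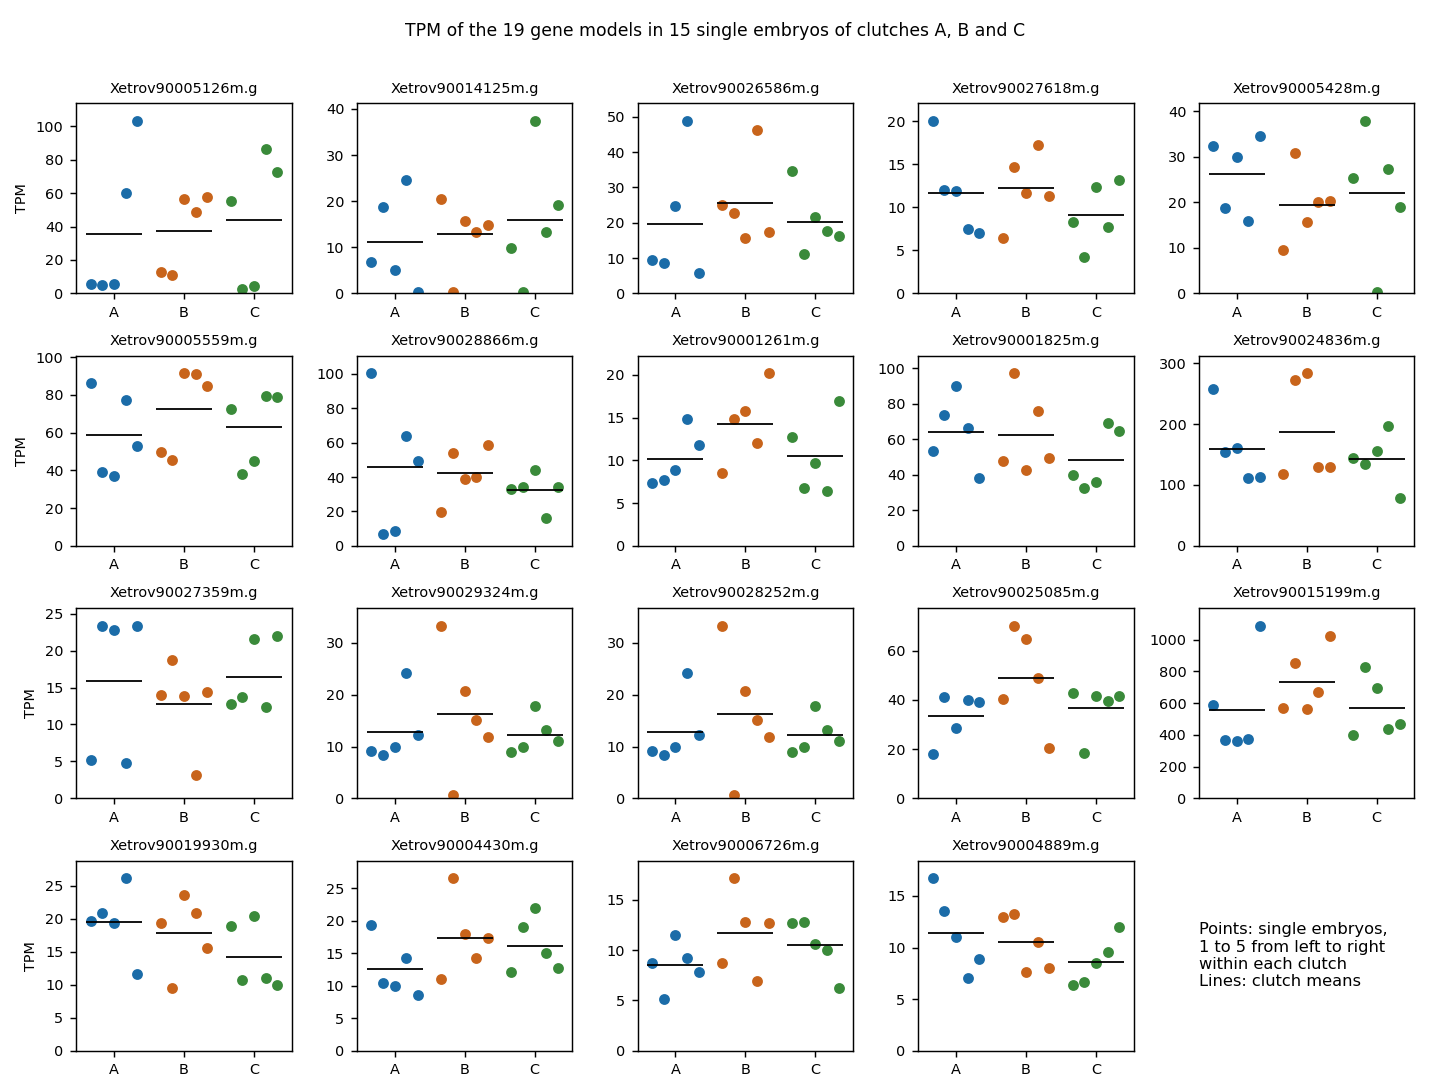
TPM of each of the 19 gene models in the 15 embryos, ordered by lowest-clutch CV. Points are single embryos, 1 to 5 from left to right in clutches A (blue), B (orange) and C (green), lines are clutch means, and axes start at 0 with a scale of their own. Xetrov90005126m.g has 7 low and 8 high embryos spread over all clutches.

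Xetrov90014125m.g and Xetrov90005428m.g varied in opposite directions with a nearly constant sum. Xetrov90014125m.g was at 6.85, 18.8, 5.05, 24.6 and 0.23 TPM in A1 to A5, where Xetrov90005428m.g was at 32.3, 18.8, 29.95, 15.9 and 34.7 TPM. In B1 to B5 the former had 20.4, 0.23, 15.8, 13.4 and 14.9 TPM and the latter 9.60, 30.9, 15.8, 20.0 and 20.3 TPM. In C1 to C5 the values were 9.81, 0.23, 37.5, 13.4 and 19.1 TPM against 25.4, 37.96, 0.22, 27.3 and 19.1 TPM. Where one model was close to 0, the other was at its highest level in that clutch: Xetrov90014125m.g was at 0.23 TPM in A5, B2 and C2, and Xetrov90005428m.g was at 0.22 TPM in C3.

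Summed, this pair stood at 37.4 ± 2.50 TPM in clutch A, 32.2 ± 2.03 in B and 37.99 ± 1.94 in C (SD, n = 5 each). The CV of the sum was 6.69%, 6.30% and 5.11%, compared with 91.6%, 58.5% (18.8% without B2) and 86.4% for Xetrov90014125m.g alone and 32.0%, 40.3% and 63.4% for Xetrov90005428m.g alone. Adding Xetrov90005428m.g left 4.03% of the within-clutch sum of squares of Xetrov90014125m.g in TPM, and the reverse left 4.35%. When each of the 7122 models was paired with the partner that left least, these were the lowest values of all. The next was 9.33%, the median was 34.6%, and the lowest for another member was 19.9%. The TPM deviations of the pair correlated at -0.980 over 15 embryos, and at -0.981, -0.965 and -0.990 within A, B and C. This search was made after the values had been seen. Whether the models share sequence was not tested.

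**Figure D3:**
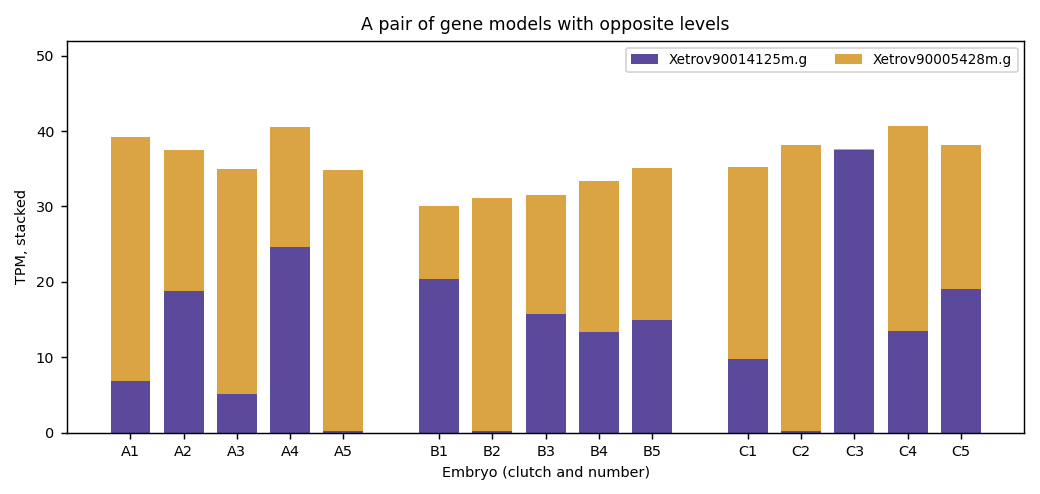
TPM of Xetrov90014125m.g (purple) and Xetrov90005428m.g (gold), stacked from 0, in each of the 15 embryos. The height of the stack runs from 30.0 to 40.7 TPM while the division between the models differs from embryo to embryo.

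A second pair could not be told apart at all. Xetrov90028252m.g and Xetrov90029324m.g had the same value in each of the 15 embryos and so count as 1 profile. Among 12551 models with a mean of at least 1 TPM, 78 were identical to another model in all embryos, in 23 groups. The shared profile was lowest in B2, at 0.73 TPM, and highest in the sibling B1, at 33.4 TPM, with B3, B4 and B5 at 20.6, 15.0 and 11.9 TPM. In clutch A it stood at 24.2 TPM in A4 and at 8.43 to 12.3 TPM in the others, and in clutch C at 8.99 to 17.8 TPM.

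Some of the remaining members were also split within a clutch, and others varied over wider ranges. Xetrov90015199m.g, the most abundant, ran from 362 TPM in A3 to 1088 TPM in A5, with 1023 TPM in B5 and 830 TPM in C2 as the highest siblings of the other clutches. Xetrov90024836m.g ran from 78.5 TPM in C5 to 284 TPM in B3, and in clutch B its values were 273 and 284 TPM in B2 and B3 and 118 to 130 TPM in the others. Xetrov90028866m.g was at 6.75 and 8.88 TPM in A2 and A3 and at 49.2 to 100.5 TPM in their siblings, while clutches B and C stayed between 16.2 and 58.9 TPM. Xetrov90026586m.g ran from 5.83 TPM in A5 to 48.9 TPM in A4, and its highest sibling in clutch B was B4 at 46.2 TPM. For these 4 models the embryo with the highest value was in each case another one of the 15: A5, B3, A1 and A4.

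Of the other 8 members, Xetrov90001825m.g ran from 32.7 to 97.2 TPM and Xetrov90025085m.g from 17.95 to 70.1 TPM. Both were highest in B2. In clutch C, Xetrov90025085m.g was at 18.4 TPM in C2 and at 39.5 to 42.8 TPM in the 4 siblings. Xetrov90019930m.g ran from 9.48 TPM in B2 to 26.1 TPM in A4. Xetrov90004430m.g and Xetrov90006726m.g were highest in B2, at 26.6 and 17.2 TPM. Xetrov90001261m.g (6.45 to 20.2 TPM), Xetrov90004889m.g (6.35 to 16.7 TPM) and Xetrov90027618m.g (4.28 to 20.1 TPM) were highest in B5, A1 and A1.

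The 19 models showed little common variation. Over their 171 pairs, the correlation across 15 embryos of deviations from the clutch mean had a median of -0.0150, and the middle 50% of pairs lay between -0.217 and 0.202. For pairs of comparison models the median was 0.0233 and the corresponding range -0.224 to 0.274. A correlation above 0.5 was found in 14 pairs of members (8.19%) and one below -0.5 in 8 (4.68%), close to the 8.896% and 6.19% of the comparison pairs. With the identical model counted once, the median was -0.00686 over 153 pairs. All correlations share the same 15 libraries, and pairs of models are not independent.

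What covariation there was joined models in small sets. With models grouped at a correlation of 0.5, there were 11 groups, 6 of them a single model and none with 5 or more. The largest had 4 models, Xetrov90014125m.g, Xetrov90019930m.g and the identical pair, with correlations of 0.623 to 0.747 between distinct profiles. In embryo B2 each of these models had its lowest value in clutch B: 0.23, 9.48 and 0.73 TPM. Each also had the highest value of its clutch in A4 (24.6, 26.1 and 24.2 TPM) and in C3 (37.5, 20.4 and 17.8 TPM). Without B2 the largest group had 3 models, and with any other embryo left out it had 4. Only this size was recomputed, so whether the same models formed the group was not tested. Within clutch B the correlation of Xetrov90014125m.g with the identical pair was 0.975, and in clutch A it was 0.256 and in C 0.639. With Xetrov90019930m.g it was 0.961 in A, 0.895 in B and 0.443 in C. Between Xetrov90019930m.g and the identical pair it was 0.350 in A, 0.914 in B and 0.336 in C. A group of 3, Xetrov90004430m.g, Xetrov90006726m.g and Xetrov90024836m.g, was lowest within clutch B in B1 or B4 and high in B2, where the models had 26.6, 17.2 and 273 TPM.

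The lowest correlations were -0.630 between Xetrov90005559m.g and Xetrov90027359m.g, -0.610 between Xetrov90014125m.g and Xetrov90015199m.g, and -0.606 (Spearman -0.839) between Xetrov90014125m.g and Xetrov90005428m.g. Outside the 19, the model most like the group of 4 was Xetrov90003933m.g, with a correlation of 0.826 to the mean of the group and a mean of 106 TPM. It had CVs of 27.9% to 56.6% but clutch means too far apart to be counted. The next, Xetrov90008701m.g at 0.814, had CVs of only 5.61% to 14.7%. The model most like the group of 3 was Xetrov90008787m.g, at 0.834, with CVs of only 7.15% to 11.05%. The values of 0.826 and 0.834 were the highest of the correlations with every model of at least 10 TPM outside the 19, over 15 embryos. A search over so many models favours high values, and these were not tested.

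**Figure D4:**
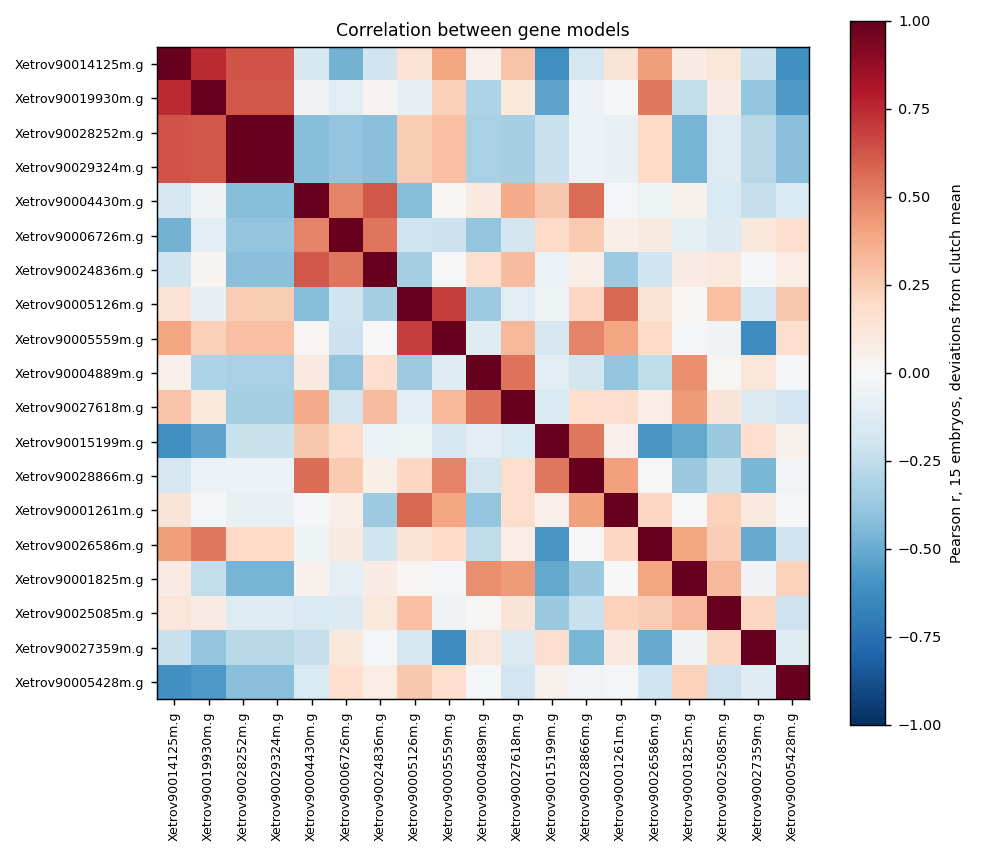
Pearson correlation between the 19 gene models over 15 embryos, on deviations of log2(TPM + 1) from the clutch mean, ordered by group size. Red squares off the diagonal are few: the identical pair is at 1, and no other pair exceeds 0.747.

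With all 15 embryos used, embryo B2 contributed most to the variation of the 19 models. Each embryo's squared deviation from its clutch mean was expressed as a share of the clutch's sum of squares, so that an even division among 5 siblings gives 20%. B2 held 34.9% on average over the 19 models (SD over models 24.6), and 32.9% with the identical model counted once. A4 led without A1 (35.9%) and without A5 (38.2%), A5 without A4 (39.3%), B1 without B2 (37.9%), C3 without C2 (35.3%) and C2 without C3 (37.0%), each in a clutch of 4, where an even division gives 25%. In the comparison models B2 held 13.4%, the lowest share of all 15 embryos. It had the highest value of clutch B in 7 members and the lowest in 6, so it was at an extreme in 13 of 19 (68.4%), against 25.2% of comparison models. On the log2 scale it lay above the clutch mean in 12 members and below it in 7, so its deviations did not all share a direction. The first principal component held 25.5% of the variance of the 19, or 23.2% with the identical model counted once. No such share is given here for the comparison models, so its size is not read further. With all 19 used, B2 had the largest score on this component, 0.690. The next in size was A4 at -0.412. An extreme value in B2 raises the CV in clutch B, so the larger figures among the 19 follow in part from their choice. B2 lay within the range of the other embryos in the number of models above 0 (17940) and in its size factor (1.02). The reason for its larger share was not tested.

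In clutches A and C the contributions were more even. A4 held 28.3% on average, or 25.8% with the identical model counted once, and was highest in 6 members and lowest in 4. A5 held 23.6% and A1 23.2%, while A3 held 10.2%, the lowest share of any embryo in the 19 models. In clutch C, C2 held 27.2%, being highest in 3 members and lowest in 7, and C3 held 23.6%, being highest in 6 and lowest in 1. A1 and B5 contributed more than the even share in the comparison models, at 28.2% and 26.8%, and in B5 the 19 models gave only 13.7%. A4, B2 and C3 exceeded the even share in the 19 models and not in the comparison models, while A1, A5, B1, C2 and C5 exceeded it in both. The choice of the 19 by their CV in each clutch bears on these shares too.

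**Figure D5:**
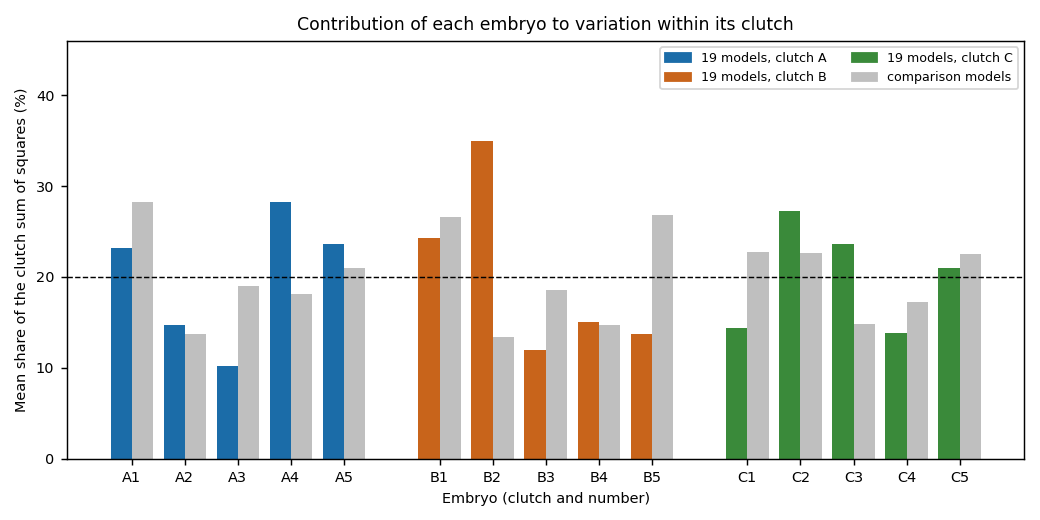
Mean share of the within-clutch sum of squares (%, log2(TPM + 1)) held by each embryo in the 19 models (coloured by clutch) and in the 7103 comparison models (grey); the dashed line marks an even division, 20%. B2 stands at 34.9% in the 19 models and 13.4% in the comparison models.

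Leaving out an embryo changed which models met the criteria. Without B2, 11 of the 19 remained and 2 others entered, and without A4 the numbers were the same, 11 and 2. Both left out the identical pair, Xetrov90014125m.g, Xetrov90005428m.g and Xetrov90019930m.g. Not all of these losses came from a lower CV. Without B2, the identical pair, Xetrov90005428m.g, Xetrov90004889m.g and Xetrov90006726m.g kept lowest-clutch CVs of 25.2% to 30.4% and failed a limit on level. Without A4, Xetrov90014125m.g, Xetrov90025085m.g and Xetrov90026586m.g did so with 58.5%, 28.2% and 43.7%. Without B3, 18 of 19 remained, and without C4 also 18. The lowest-clutch CV moved by more than 1.5 times in 11 of the 19 models when some embryo was left out. For Xetrov90025085m.g it was 28.2% with all embryos and 3.33% without C2, and for Xetrov90014125m.g it was 58.5% and 18.8% without B2. Xetrov90028866m.g passed from 31.1% to 14.2% without C4, Xetrov90006726m.g from 25.7% to 12.3% without C5, and Xetrov90026586m.g and Xetrov90027359m.g from 43.7% to 21.6% and from 29.5% to 15.4% without B4. The other 5 were the identical pair (16.7% without A4), Xetrov90019930m.g (14.9% without A5), Xetrov90024836m.g (17.6% without C5) and Xetrov90027618m.g (20.1% without B1). Xetrov90005126m.g kept a lowest-clutch CV of at least 48.0% whichever embryo was left out. Without A5, C2 or C3 it still failed the criteria, because its clutch means were then too far apart. The loss of an embryo's values and the smaller number of siblings cannot be told apart.

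None of the 19 models was called different among clutches. In limma's moderated F-test over all models with a mean of at least 1 TPM, 0 of 19 passed an adjusted p under 0.05. Of all 12551 models, 57.9% did. At an unadjusted F-test p under 0.05, 0 of 19 passed, where 7889 of the 12551 models did. The pairwise contrasts called 0 members each, where B and A differed in 25.6% of models, C and A in 41.6% and C and B in 48.1%. Members had to have clutch means within 1.5 times of each other and wide variation among siblings, so these counts follow from the choice and nothing is read from them. Xetrov90015199m.g, at 556 ± 313 TPM in clutch A, 735 ± 199 in B and 566 ± 187 in C (SD, n = 5 each), had a limma F-test adjusted p of 0.334. Without A5, its highest embryo, the same F-test gave 0.0454, the only call of a member with an embryo left out. The model no longer met the criteria without A5, so nothing is read from this value either.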

How the data were processed

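Expression was measured by RNA-seq in 15 single embryos. The authors deposited TPM values for 26550 gene models in 1 column per embryo, and columns were assigned to clutches by the sample titles. RSEM 1.2.12 and Bowtie2 2.2.7 are named in the submitters' processing notes, without a genome build or annotation. Values were used without rescaling. TPM keeps no depth, so no counting intervals are given. The H3K4me1 peak lists were not used here. The criteria for the 19 models and the lists and tests were chosen with earlier results of these data known. Replicates are separate embryos.

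Correlations, principal components and embryo shares used log2(TPM + 1) minus the clutch mean. Groups came from average-linkage clustering cut at a correlation of 0.5. The limma fit (3.58.1, R 4.3.3, eBayes with trend and robust) covered models with a mean of at least 1 TPM, with Benjamini-Hochberg adjustment over all 12551. Differences on the log2(TPM + 1) scale understate the change of low genes. Named models were, by rule, the 10 members with the highest lowest-clutch CV, the 5 with the highest mean, the pairs with the highest and lowest correlations, those next to the CV limit and those most like the 2 largest groups. By this rule 18 of the 19 members were named. Xetrov90025085m.g was added after its values were seen, so that every member is shown. Added after seeing the data were the gaps, the sums of pairs and the count of identical models. Steps were tested on simulated data. Python 3.11.15, numpy 2.4.6, pandas 2.3.3, scipy 1.17.1 and matplotlib 3.10.9 were used.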

Additional observations from a re-analysis of the deposited data

Results flagged for a closer look

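Of 69 groups of 5 siblings examined for a value far from the rest (57 for members, 12 for measures of whole embryos), 4 were flagged, and chance flags about 1 in 20. The member groups were chosen for wide variation and hold the identical pair as separate entries, so that rate is not their chance level. Xetrov90025085m.g was at 18.4 TPM in C2, with its nearest sibling at 39.5 TPM. The identical models Xetrov90028252m.g and Xetrov90029324m.g were at 24.2 TPM in A4, with the nearest sibling at 12.3 TPM. In embryo B1 the 10 highest models took 8.97% of all TPM, against at most 7.58% in the other embryos of clutch B.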

How the results depend on the processing

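The number of models depended on the criteria. It was 40 with a CV of at least 20% and 10 with 30%, 42 with means from 5 TPM and 9 with means from 20 TPM, and 2 with a tighter limit on clutch means, 31 with a limit of 2 times and 69 with none. With median-ratio scaling it was 19, 18 of them the same, and with quantile normalization 20, 17 of them the same. Leaving out each embryo gave 13 to 22.

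The median correlation among the 19 was 0.0624 in clutch A alone and 0.107 in clutch C alone, and -0.0433 to 0.0139 with an embryo left out. The first component held 25.5% of the variance of the 19 (22.7% to 30.1% with an embryo left out), and 37.9%, 47.3% and 38.4% in clutches A, B and C alone, where 5 embryos leave fewer components. The leading embryo's share was 34.9% to 40.7% with an embryo left out, where B2 led in all but 6 of 15 cases, and the largest group had 3 to 4 models. For the opposite pair, 3.28% to 6.80% of the sum of squares was left, the highest without C3. With an embryo left out, limma called 0 to 1 members and 6771 to 7213 models in all. The smaller groups of siblings are part of each such setting, and other causes were not tested. Of 323 recomputed single-model CVs, 22 moved by more than the SD over clutches, and of the 285 with an embryo left out, 18 moved by more than 1.5 times.

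With the sample number as a replicate block, limma called 0 members and 7055 models. Deviations of same-numbered embryos correlated at -0.0675 to 0.149, and 1 of 15 embryos matched its own number best in both other clutches. Whether the numbers mark a shared batch is not stated and was not tested.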
